A study of Mus musculus with 18 samples.

Results

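Cholesterol leaves a cell mainly through the transporters ABCA1 and ABCG1, which load it onto apolipoproteins and HDL. Their genes are classic targets of the liver X receptors LXRα (Nr1h3) and LXRβ (Nr1h2), nuclear receptors that bind oxysterols, pair with RXR and switch on genes that lower cellular sterol. The 9 genes described here are the efflux transporters Abca1 and Abcg1, the acceptor apolipoprotein Apoe, both LXR genes, Mylip (IDOL, an LXR-induced ubiquitin ligase that marks lipoprotein receptors for degradation), Npc1 and Npc2, which move cholesterol out of lysosomes, and Soat1, which esterifies it for storage in lipid droplets. They were chosen by gene symbol from 20295 genes counted by RNA-seq. All 9 were found, with 60 to 16717 counts per library, and all 9 were among the 12156 genes that passed the filter on low counts. They took 0.137% to 0.214% of the counts of a library.

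The cells were BAT-LgT brown adipocytes obtained from a single line of mouse brown preadipocytes that carry the SV40 large T antigen for immortalisation, as every group here does, and none came from an animal's tissue. On day 7 of differentiation the cells were given inhibitors of the lipases ATGL and HSL (Lipase Inh.) or no inhibitor for 1 h, and for the next 3 h DMSO (Vehicle), SR-3420 or 100 nM isoproterenol (ISO), which stimulates β-adrenergic receptors. SR-3420 is an ABHD5 ligand that activates ATGL without engaging the receptor. Its dose is 10 µM per the labels, whereas the text of the study names another dose, which was not settled here. The 6 groups of 3 samples are called Vehicle, ISO and SR-3420, and with the prefix Lipase Inh. where inhibitors were present. The methods speak of independent experiments with this line, so p-values measure the spread between cultures of 1 line.

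In 17 of 18 libraries the total was 10310447 to 21205032 counts. Lipase Inh. + SR-3420 replicate 2 had 4263755 counts, and Lars2 held 18.3% of them against 0.0397% to 0.121% elsewhere, so calls and interactions that rest on this library are also given without it. Adipoq, Fabp4 and Plin1 were abundant in every library, at 2415 to 4026 CPM (counts scaled to library size) for Adipoq, whereas Dio2 had 0 to 6 counts. Since ABCA1, ABCG1 and LXRα are also prominent in macrophages, markers of these cells were examined. Ptprc had 0 counts in all 18 libraries, Emr1 in 17 and Itgam in 14, whereas Cd14 (9 to 124 counts) and Cd68 (10 to 70 counts) were found in every library. The 7 macrophage markers summed to 5.41 to 15.4 CPM. Only Cd68 and Cd14 were tested. With ISO, Cd68 was higher at an adjusted p of at most 0.05 (log2 fold change 0.74), although its samples overlapped Vehicle, and Cd14 was not (0.11). Under inhibitors 1 of the 2 was higher with ISO. Neither was called with SR-3420, with or without inhibitors. The 5 preadipocyte and fibroblast markers summed to 135 to 137 CPM with SR-3420, above the 88.9 to 118 CPM of Vehicle, and to 103 to 130 CPM with ISO. The 10 brown adipocyte markers summed to 11306 to 12195 CPM in Vehicle. SR-3420 gave 12048 to 12438 CPM for this sum, and ISO 13301 to 14232 CPM. The sum hides single markers that went both ways with SR-3420. Of the 9 tested, 4 were higher and 3 lower at an adjusted p of at most 0.05, against 26.0% and 25.4% of all genes. Mean Adipoq went from 3593 to 2508 CPM and Pparg from 537 to 302 CPM, whereas Lipe went from 1804 to 3078 CPM. With inhibitors the 10 markers summed to 9711 to 10524 CPM in Vehicle, below every other group. There ISO gave 11476 to 11653 CPM and SR-3420 gave 11241 to 12064 CPM, both wholly above that Vehicle. The part of these shifts in the values below was not tested. In bulk RNA, fewer cells of a type and less RNA per cell cannot be told apart.

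Abca1 and Mylip, both textbook LXR targets, went in opposite directions with ISO, and the 250 bases before their annotated starts are shown because this contrast recurs through the results. The sequences come from the RefSeq promoter table of the GRCm38.p6 build, a later build than the mm9 used for counting. The Abca1 window is chr4:53159896-53160145 on the minus strand and the Mylip window is chr13:45389492-45389741 on the plus strand. Capitals mark, in Abca1, an E-box (CACGTG), the match to a loose LXR element and a TATA box (TATAAA), and in Mylip a TATA box.
Abca1: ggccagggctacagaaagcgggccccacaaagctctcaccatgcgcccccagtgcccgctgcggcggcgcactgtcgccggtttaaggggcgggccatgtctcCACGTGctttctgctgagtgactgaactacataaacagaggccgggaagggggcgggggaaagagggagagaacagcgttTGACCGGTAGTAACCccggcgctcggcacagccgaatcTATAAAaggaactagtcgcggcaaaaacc
Mylip: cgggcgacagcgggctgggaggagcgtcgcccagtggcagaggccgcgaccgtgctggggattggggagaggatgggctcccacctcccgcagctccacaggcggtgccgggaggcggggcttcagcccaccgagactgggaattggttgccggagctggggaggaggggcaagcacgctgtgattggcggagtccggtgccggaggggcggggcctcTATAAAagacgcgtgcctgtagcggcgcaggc
The TATA box begins at position -29 in Abca1 and at position -32 in Mylip, counted from the start site, and the 15 bases of the LXR element begin at position -67 in Abca1.

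Windows from 250 bases before to 50 bases after each start were searched on both strands. Of the 9 genes, 7 had entries, with 10 windows in all. Abcg1 and Npc1 had none. The strict LXR element, a repeat of AGGTCA with 4 bases between, was in 0 of the 10 windows and in 0.0152% of all 32851 windows. The loose form, GGTNA and GGTCA with 5 bases between, whose letters were chosen to take in the known element of Abca1, was in Abca1 among these genes and in 0.207% of all windows. TATAAA was in windows of Abca1, Mylip and Apoe, and in 13.6% of all windows, and the E-box was in Abca1 and in 7.15%. The cAMP response element TGACGTCA was in none of the 10 windows and in 1.79% of all, whereas its shorter core TGACG lay just after the starts of Soat1 and Nr1h2 and was in 20.8% of all. The sterol response element TCACNCCAC was in none of the 10 and in 1.24% of all. These matches describe the letters in the windows and say nothing of binding.

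Per length, Apoe was the most abundant of the 9 transcripts in Vehicle cells at 337 ± 81.4 RPKM (SD, n = 3), followed by Npc2 at 122 ± 12.7 RPKM. Abcg1 at 47.5 ± 3.26 RPKM and Abca1 at 42.9 ± 6.08 RPKM came next, and their sample ranges overlapped. Nr1h2 (29.2 ± 2.57 RPKM), Nr1h3 (26.7 ± 0.916 RPKM), Npc1 (25.4 ± 4.11 RPKM) and Mylip (24.8 ± 2.89 RPKM) formed a group in which every neighbour overlapped the next. Soat1 was far lower, at 2.96 ± 0.0636 RPKM. Both LXR genes were therefore present at similar levels in unstimulated cells.

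**Figure D1:**
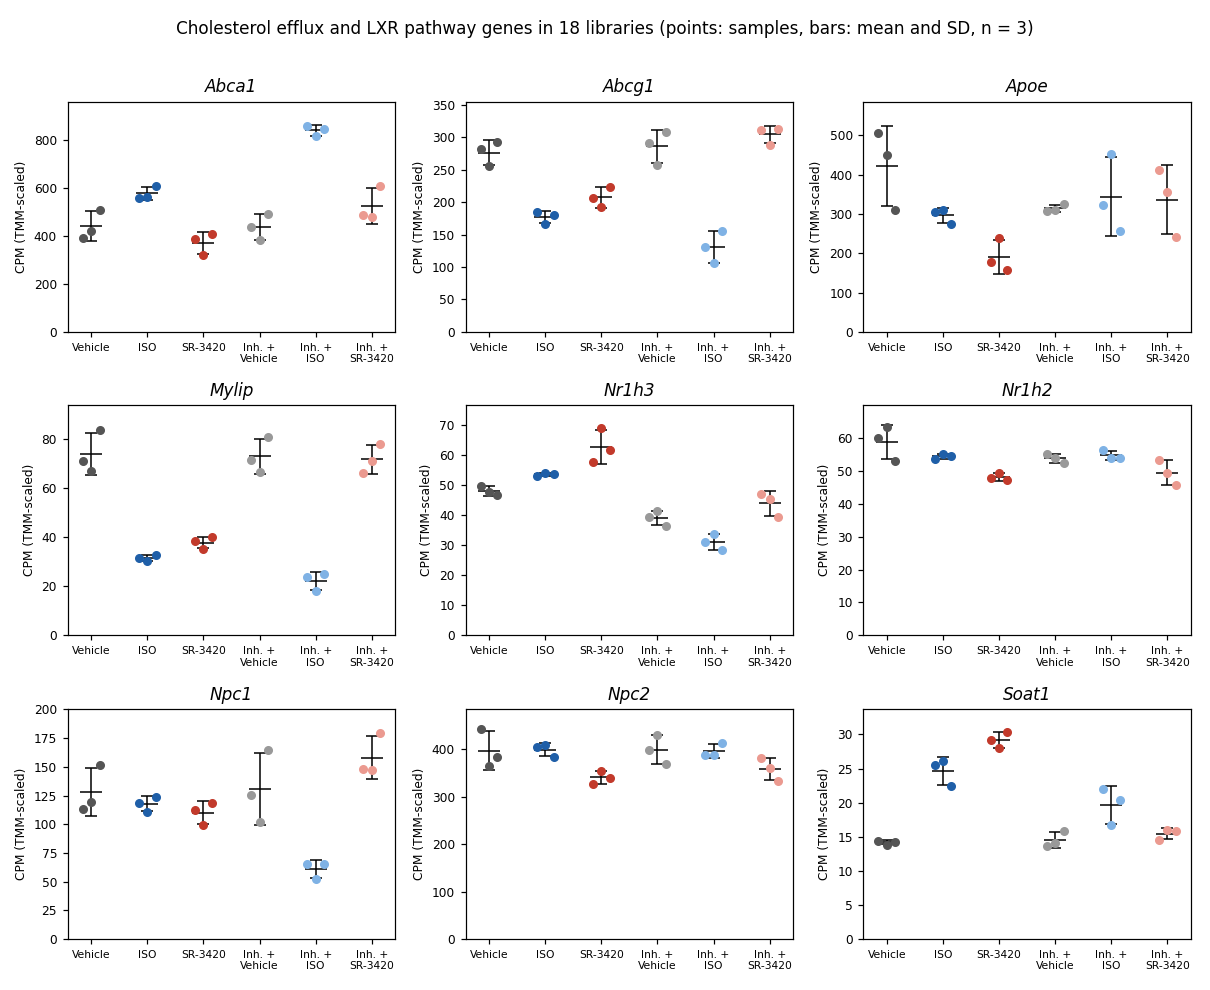
Level of each of the 9 genes in every library, as CPM of TMM-scaled libraries on axes that start at 0; points are samples, and bars give the mean and SD of the 3 samples of a group. Abca1 lies at 816 to 857 CPM in the Lipase Inh. + ISO group and at 610.2 CPM or less elsewhere, whereas Mylip is lowest in that group.

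ISO against Vehicle gives the response to β-adrenergic stimulation, SR-3420 against Vehicle the response to lipolysis begun inside the cell, and the inhibitors ask which of either response needs the lipases. Counts were compared with the edgeR quasi-likelihood test, with Benjamini-Hochberg adjustment over all 12156 genes, and a gene was called at an adjusted p of at most 0.05. With ISO, 2 of the 9 genes were called higher than in Vehicle (Abca1, Soat1) and 3 lower (Abcg1, Mylip, Apoe), where 26.8% of all genes tested were called higher and 25.0% lower. With SR-3420, 2 were called higher (Soat1, Nr1h3) and 5 lower (Apoe, Mylip, Abcg1, Nr1h2, Npc2), against 26.0% and 25.4% of all genes. The median log2 fold change of the 9 genes was -0.11 with ISO and -0.24 with SR-3420, and that of all genes -0.02 in each. Past 2-fold as well, 1 gene was called with ISO (Mylip, lower, as were 4.07% of all genes) and 2 with SR-3420 (Soat1 higher, against 3.97% of all genes, and Apoe lower, against 2.37%). The shares of the 9 genes called with ISO, 2 and 3 of 9, are near this background. Both comparisons use the same Vehicle samples.

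With the lipases inhibited, ISO against Lipase Inh. + Vehicle gave 2 genes called higher (Abca1, Soat1; background 29.4%) and 4 lower (Mylip, Abcg1, Npc1, Nr1h3; background 28.3%). Of these, Mylip, Abcg1 and Npc1 were also past 2-fold, as were 7.63% of all genes. SR-3420 with the inhibitors gave 0 of 9 calls by edgeR, where 4.34% of all genes were called; 1 gene (Abca1) had an unadjusted p under 0.05, and DESeq2 also called 0. Without Lipase Inh. + SR-3420 replicate 2 the count was again 0. Other settings did give calls. Npc1 was called higher without Lipase Inh. + Vehicle replicate 3 (0.48). A fit with a term for the replicate number, the replicate block described at the end, called Abca1 and Npc1 higher. The inhibitors alone gave 0 of 9 calls by edgeR against 0.913% of all genes; 2 genes (Nr1h3, Apoe) had an unadjusted p under 0.05, and DESeq2 called 0. The replicate block called Nr1h3 lower with inhibitors alone. These comparisons share the Lipase Inh. + Vehicle samples.

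Whether the inhibitors altered the response was tested as an interaction, in which the effect without inhibitors was subtracted from that with them. For ISO, 1 gene had a higher effect with inhibitors (Abca1; background 14.9%) and 4 a lower one (Npc1, Nr1h3, Mylip, Abcg1; background 16.6%). For SR-3420, 4 had a higher effect with inhibitors (Apoe, Mylip, Abca1, Abcg1; background 12.5%) and 1 a lower one (Soat1; background 14.8%), and both counts were the same without Lipase Inh. + SR-3420 replicate 2. Without that library the called interactions were 1.20 for Apoe, 0.94 for Mylip, 0.57 for Abca1, 0.54 for Abcg1 and -0.98 for Soat1. The median interaction over the 9 genes was -0.37 for ISO and 0.49 for SR-3420, and over all genes 0.01 for each.

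These values rest on TMM scaling, which sets the bulk of genes at no change. On total counts alone the median gene moved by -0.31 with ISO, -0.16 with SR-3420, -0.23 with ISO and -0.10 with SR-3420 under inhibitors, and -0.15 in ISO against SR-3420 (log2). The share of calls that were higher then fell from 51.7% to 19.9% for ISO, from 50.6% to 30.8% for SR-3420, from 51.0% to 27.8% for ISO with inhibitors, from 68.8% to 33.1% for SR-3420 with inhibitors, from 53.2% to 42.0% for the inhibitors alone and from 53.1% to 20.3% for ISO against SR-3420. It rose from 47.3% to 58.6% for the ISO interaction. For the SR-3420 interaction it was 45.9% and 55.8%. All changes below are relative to the bulk of genes. For the genes introduced at the start, a call lost on total counts is named beside it. The genes of the wider pathway lists, Vldlr and Lrp8 among them, were not refitted on total counts. Whether their calls hold on that scale was not tested.

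**Figure D2:**
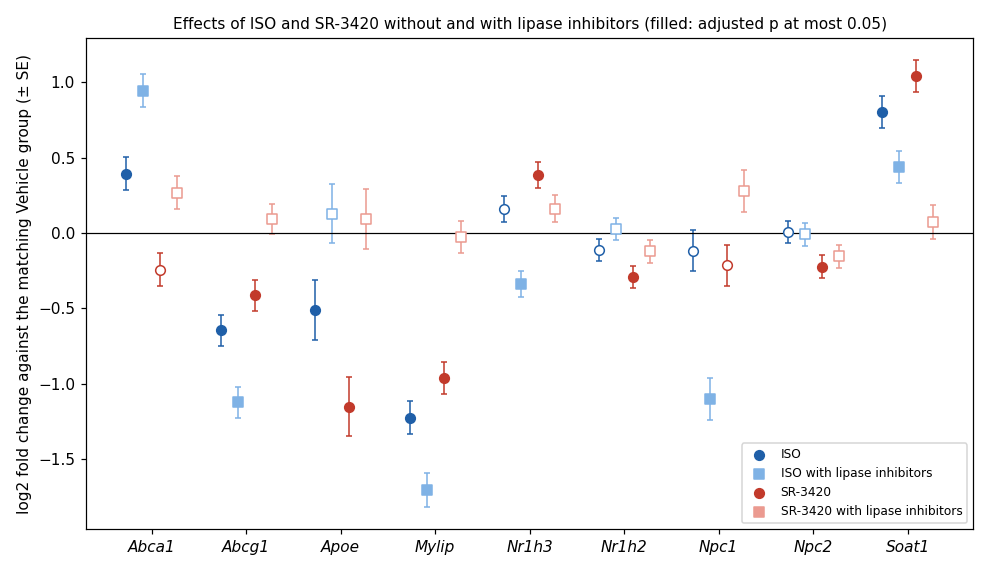
Log2 fold change of each gene with ISO or SR-3420 against the Vehicle group with the same inhibitor status; error bars are standard errors and filled symbols have an adjusted p of at most 0.05. The SR-3420 effects with inhibitors are all open symbols, whereas ISO with inhibitors takes Abca1 to 0.94 and Mylip to -1.71.

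The efflux transporters diverged under ISO. Abca1 (NM_013454; mm9 chromosome 4, 53043661 to 53172767, minus strand), which passes phospholipid and cholesterol to lipid-poor apolipoproteins, rose 1.31-fold, and Abcg1 (NM_009593; chromosome 17, 31194639 to 31254926, plus strand), which serves HDL particles, fell 1.56-fold. With the lipases inhibited ISO raised Abca1 1.92-fold and lowered Abcg1 2.18-fold, and both effects were larger than without inhibitors. SR-3420 gave Abca1 a value below Vehicle whose call depended on the processing, and lowered Abcg1 1.33-fold, and with inhibitors neither gene was called by the test used here.

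Abca1 was at 389, 421 and 509.6 CPM in Vehicle and at 560.0, 564 and 610.2 CPM with ISO, without overlap. With SR-3420 it was at 385, 321 and 408 CPM, which overlaps Vehicle. Under inhibitors Vehicle gave 438, 382 and 491 CPM and ISO gave 857, 816 and 847 CPM, so each ISO sample was far above each Vehicle sample. SR-3420 with inhibitors gave 485, 478 and 610.1 CPM, again overlapping its Vehicle.

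The log2 fold change of Abca1 was 0.39 ± 0.11 (SE; adjusted p = 0.00438) with ISO and 0.94 ± 0.11 (adjusted p = 1.88e-07) with ISO under inhibitors, an interaction of 0.55 ± 0.15 (adjusted p = 0.00888). On total counts the ISO effect without inhibitors was 0.09 and not called (adjusted p = 0.544; range over its 26 alternatives 3.1e-05 to 0.544). With SR-3420 it was -0.24 ± 0.11 (adjusted p = 0.0670), and with inhibitors 0.27 ± 0.11 (adjusted p = 0.218), an interaction of 0.51 ± 0.15 (adjusted p = 0.0173). The SR-3420 effect was called on total counts (-0.40, adjusted p = 0.00827), without the filter on low counts (-0.24, adjusted p = 0.0277) and in libraries thinned to the smallest total (-0.26, adjusted p = 0.0385), with adjusted p from 0.0052 to 0.353 over its 26 alternatives. It was also called without SR-3420 replicate 3 (-0.31), Vehicle replicate 1 (-0.32) or Lipase Inh. + SR-3420 replicate 3 (-0.24), and was as small as -0.13 without Vehicle replicate 3 and -0.15 without SR-3420 replicate 2. Its interaction was lost without Lipase Inh. + SR-3420 replicate 3 (0.38), SR-3420 replicate 2 (0.42) or Vehicle replicate 3 (0.40), with adjusted p from 0.00035 to 0.057 over 26 alternatives. With inhibitors, the SR-3420 value of 0.27 was 0.14 without Lipase Inh. + SR-3420 replicate 3.

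Abcg1 stood at 282, 255 and 292 CPM in Vehicle, at 185, 166 and 179 CPM with ISO and at 206, 192 and 224 CPM with SR-3420. Both stimulated groups lay wholly below Vehicle. Under inhibitors the values were 291, 258 and 309 CPM in Vehicle, 131, 106 and 156 CPM with ISO, and 311, 288 and 313 CPM with SR-3420. Of these, ISO was separate from Vehicle and SR-3420 overlapped it.

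The change of Abcg1 was -0.64 ± 0.10 (adjusted p = 1.72e-05) with ISO and -0.41 ± 0.10 (adjusted p = 0.00179) with SR-3420 on the log2 scale. With inhibitors it was -1.12 ± 0.10 (adjusted p = 5.38e-09) with ISO and 0.09 ± 0.10 (adjusted p = 0.718, 95% interval -0.11 to 0.29) with SR-3420. The interaction was -0.48 ± 0.14 (adjusted p = 0.0144) for ISO and 0.51 ± 0.14 (adjusted p = 0.0114) for SR-3420, so the inhibitors moved the 2 responses of Abcg1 in opposite directions. On total counts the ISO interaction was -0.40 (adjusted p = 0.0678, range over alternatives 0.000184 to 0.0678).

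The balance between the transporters can be read within each library as the ratio of counts per kb of Abca1 to Abcg1. It was 0.784, 0.935 and 0.990 in Vehicle and 1.72, 1.92 and 1.93 with ISO. With SR-3420 the ratio was 1.06, 0.948 and 1.03, which overlaps Vehicle. Under inhibitors it was 0.865 ± 0.0330 in Vehicle, 3.72 ± 0.650 with ISO and 0.976 ± 0.115 with SR-3420 (mean ± SD, n = 3). In all 3 Lipase Inh. + ISO libraries the ratio, at 3.08 to 4.38, was above that of every other library. The ratio of Abca1 to Mylip ran from 1.73 ± 0.119 in Vehicle to 5.32 ± 0.143 with ISO and 11.2 ± 1.78 with ISO under inhibitors.

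**Figure D3:**
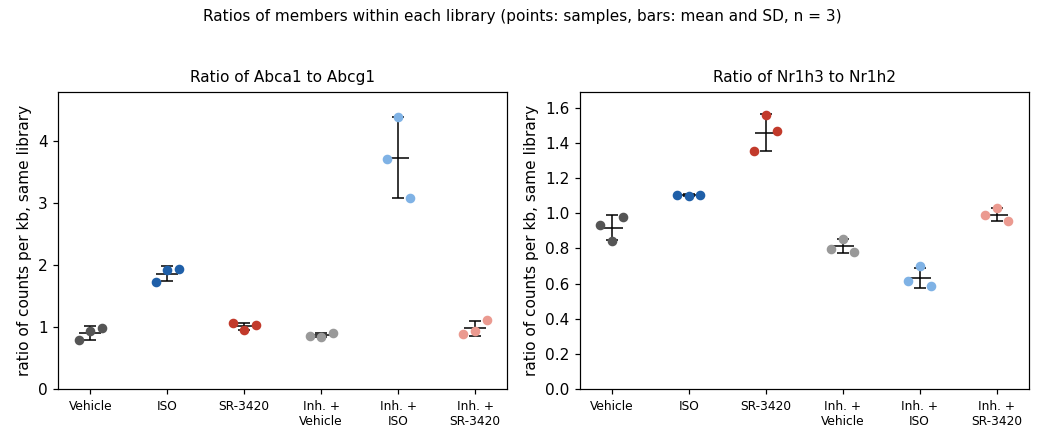
Ratio of counts per kb within each library for Abca1 to Abcg1 (left) and Nr1h3 to Nr1h2 (right), with axes from 0; points are samples and bars give the mean and SD of 3 samples. ISO raises the transporter ratio from 0.903 to 1.86 on average, and to 3.72 with inhibitors, while the receptor ratio is highest with SR-3420 at 1.46.

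Apoe, the apolipoprotein that accepts effluxed cholesterol and whose gene is an LXR target in adipose tissue and macrophages, was lower with SR-3420 by 2.22-fold and with ISO by 1.43-fold. Neither stimulus gave a call with the inhibitors present. Apoe (NM_009696; chromosome 7, 20281593 to 20284515, minus strand) was at 507, 449 and 309 CPM in Vehicle, 304, 309 and 275 CPM with ISO and 177, 238 and 156 CPM with SR-3420. SR-3420 was separate from Vehicle, and ISO overlapped it through Vehicle replicate 3. Under inhibitors Vehicle gave 307, 311 and 324 CPM, ISO 323, 453 and 255 CPM and SR-3420 412, 356 and 241 CPM, so that the stimulated samples lay on both sides of Vehicle.

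Of the 9 genes Apoe had the widest spread between replicates, with an SD of 102 CPM in Vehicle. With SR-3420 the log2 fold change was -1.15 ± 0.20 (adjusted p = 5.43e-05), and the interaction was 1.24 ± 0.28 (adjusted p = 0.00202; 1.20 without Lipase Inh. + SR-3420 replicate 2). With ISO it was -0.51 ± 0.20 (adjusted p = 0.0336), but DESeq2 gave an adjusted p of 0.0744, and the call was lost without Vehicle replicate 1 (-0.36) or 2 (-0.46) or without ISO replicate 1 (-0.53), 2 (-0.55) or 3 (-0.46), with adjusted p from 0.000664 to 0.182 over 26 alternatives. The ISO interaction of 0.64 ± 0.28 was not called (adjusted p = 0.0840), but was without Vehicle replicate 3 (0.83) or Lipase Inh. + ISO replicate 3 (0.82), and was 0.39 without Lipase Inh. + ISO replicate 2. With inhibitors alone the value was -0.43 ± 0.20, which was not called (adjusted p = 0.412), and -0.28 without Vehicle replicate 1.

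The LXR genes responded to SR-3420 in opposite directions, with Nr1h3 up 1.30-fold and Nr1h2 down 1.22-fold, and neither was called with ISO alone. Nr1h3 (NM_001177730; chromosome 2, 91024218 to 91035273, minus strand) encodes LXRα, the inducible receptor of lipid-handling tissues. Its level was 49.9, 47.8 and 46.7 CPM in Vehicle, 53.2, 54.2 and 53.9 CPM with ISO and 57.9, 69.04 and 61.8 CPM with SR-3420. Every SR-3420 sample was above every ISO sample, and every ISO sample above Vehicle.

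Under inhibitors the order changed. Nr1h3 was at 39.4, 41.4 and 36.6 CPM in Vehicle, 31.2, 33.7 and 28.3 CPM with ISO and 47.2, 45.6 and 39.4 CPM with SR-3420. ISO was wholly below its Vehicle, and SR-3420 overlapped it. The change with ISO under inhibitors was -0.34 ± 0.09 (adjusted p = 0.00261) and without them 0.16 ± 0.09 (adjusted p = 0.131), and the interaction of -0.50 ± 0.12 was called (adjusted p = 0.00382).

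With SR-3420 the change of Nr1h3 was 0.38 ± 0.08 (adjusted p = 0.000691), and on total counts 0.22, which was not called (adjusted p = 0.0549, range 9.9e-05 to 0.0549). With inhibitors it was 0.16 ± 0.09 (adjusted p = 0.412), and the interaction of -0.22 ± 0.12 was not called (adjusted p = 0.194; -0.13 without Lipase Inh. + SR-3420 replicate 3). The inhibitors alone gave -0.30 ± 0.09, with groups that did not overlap but an adjusted p of 0.132.

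Nr1h2 (NM_001285518; chromosome 7, 51804986 to 51809335, minus strand) encodes LXRβ, which is expressed in most tissues. It kept within 45.8 to 63.1 CPM over all 18 libraries. SR-3420 brought it to 47.0 to 49.4 CPM from 53.02 to 63.1 CPM, a change of -0.29 ± 0.07 (adjusted p = 0.00223). The other values were -0.11 ± 0.07 with ISO, 0.02 ± 0.07 with ISO under inhibitors and -0.12 ± 0.08 with SR-3420 under inhibitors, none of them called. On total counts the ISO value was -0.42 and called (adjusted p = 0.000423, range 0.000423 to 0.605). The ratio of counts per kb of Nr1h3 to Nr1h2 was 0.931, 0.845 and 0.981 in Vehicle and 1.35, 1.56 and 1.47 with SR-3420, and it was 1.10 in ISO on average. Under inhibitors it was 0.812 ± 0.0391 in Vehicle, 0.634 ± 0.0569 with ISO and 0.993 ± 0.0361 with SR-3420.

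Mylip gave the largest fold change of the 9 genes with ISO, falling 2.34-fold without and 3.26-fold with inhibitors. It also fell 1.95-fold with SR-3420, and with inhibitors this change was no longer called. Mylip (NM_153789; chromosome 13, 45485111 to 45507309, plus strand) was at 70.9, 67.2 and 83.6 CPM in Vehicle, 31.6, 30.4 and 32.8 CPM with ISO and 38.4, 35.3 and 39.9 CPM with SR-3420. The 3 groups did not overlap. With inhibitors it was at 71.6, 66.7 and 80.9 CPM in Vehicle, 23.8, 17.9 and 25.0 CPM with ISO and 66.1, 71.2 and 78.1 CPM with SR-3420, so SR-3420 lay within the range of its Vehicle apart from a replicate just below it.

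On the log2 scale Mylip changed by -1.23 ± 0.11 (adjusted p = 5.00e-09) with ISO, -0.96 ± 0.11 (adjusted p = 1.68e-07) with SR-3420 and -1.71 ± 0.11 (adjusted p = 2.39e-11) with ISO under inhibitors. With SR-3420 under inhibitors the value was -0.03 ± 0.11 (adjusted p = 0.940, 95% interval -0.23 to 0.18), and the interaction was 0.94 ± 0.15 (adjusted p = 7.88e-05). The ISO interaction was -0.48 ± 0.16 (adjusted p = 0.0216). It was not called on total counts (-0.40), in libraries thinned to the smallest total (-0.46), or without Lipase Inh. + ISO replicate 2 (-0.36), Lipase Inh. + Vehicle replicate 3 (-0.40) or Vehicle replicate 2 (-0.42), with adjusted p from 0.000956 to 0.0708 over 26 alternatives.

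The receptors that MYLIP marks for degradation include VLDLR and LRP8. Vldlr, which takes up triglyceride-rich lipoproteins, was at 30.2, 37.2 and 28.4 CPM in Vehicle, 62.9, 64.6 and 56.1 CPM with ISO and 92.1, 91.3 and 70.2 CPM with SR-3420. Its groups did not overlap, and its log2 fold change was 0.94 ± 0.12 (adjusted p = 1.06e-06) for ISO and 1.40 ± 0.12 (adjusted p = 3.76e-09) for SR-3420. With inhibitors ISO instead lowered it, with a change of -0.88 ± 0.13 (adjusted p = 5.93e-06), and SR-3420 gave 0.33 ± 0.13 (adjusted p = 0.174; 0.27 without Lipase Inh. + SR-3420 replicate 2). Lrp8 was at 3.57 to 9.43 CPM over all libraries and was not called in any of the 8 comparisons. These are transcript levels, and receptor protein was not measured.

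The lysosomal exporters differed from each other. Npc1 (NM_008720; chromosome 18, 12348203 to 12394895, minus strand), the membrane protein of the pair, fell 2.14-fold with ISO under inhibitors and in no other comparison with a Vehicle group. It was at 113, 119 and 152 CPM in Vehicle, 119, 111 and 124 CPM with ISO and 113, 99.1 and 119 CPM with SR-3420, all overlapping. Under inhibitors it was at 126, 102 and 165 CPM in Vehicle, 65.2, 52.3 and 65.5 CPM with ISO and 148, 147 and 179 CPM with SR-3420. The Lipase Inh. + ISO samples were below all other 15 libraries.

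The change of Npc1 was -1.10 ± 0.14 (adjusted p = 7.27e-07) with ISO under inhibitors and -0.12 ± 0.14 (adjusted p = 0.498) without, and the interaction was -0.98 ± 0.20 (adjusted p = 0.000513). On total counts the value without inhibitors was -0.42 and called (adjusted p = 0.0133, range 0.0133 to 0.933). SR-3420 gave -0.21 ± 0.14 (adjusted p = 0.201; called on total counts at -0.37, and -0.08 without Vehicle replicate 3). With inhibitors it gave 0.28 ± 0.14 (adjusted p = 0.333), 0.48 and called without Lipase Inh. + Vehicle replicate 3, 0.13 without Lipase Inh. + Vehicle replicate 2 and 0.17 without Lipase Inh. + SR-3420 replicate 3. The SR-3420 interaction of 0.49 ± 0.19 was not called (adjusted p = 0.0635), but was without Lipase Inh. + Vehicle replicate 3 (0.69) or Vehicle replicate 1 (0.57) and without the filter on low counts (0.48, adjusted p = 0.0175). Npc1 shares 276 bases of its span with 3110002H16Rik on the other strand (191 counts on average), and whether the counting used strand is not stated, so their reads may not be separable there.

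Npc2 (NM_023409; chromosome 12, 86095509 to 86114062, minus strand), the soluble partner that hands cholesterol to NPC1, stayed within 327 to 444 CPM. SR-3420 brought it to 327 to 355 CPM from 364 to 444 CPM, a fall by 0.22 ± 0.07 on the log2 scale (adjusted p = 0.0165) that was not called without Vehicle replicate 1 (-0.13) or SR-3420 replicate 1 (-0.19), with adjusted p from 0.00111 to 0.145 over 26 alternatives. With ISO the value was 0.01 ± 0.07 (adjusted p = 0.943, 95% interval -0.14 to 0.15). On total counts this turned to -0.30 and was called (adjusted p = 0.00654), as was -0.23 with ISO under inhibitors in place of -0.01.

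Soat1 (NM_009230; chromosome 1, 158358239 to 158404459, minus strand), the acyltransferase that makes cholesteryl esters, was called higher with ISO, with SR-3420 and with ISO under inhibitors. It was at 14.4, 13.8 and 14.3 CPM in Vehicle, 25.5, 26.1 and 22.4 CPM with ISO and 29.2, 27.9 and 30.4 CPM with SR-3420, with no overlap. Under inhibitors it was at 13.6, 14.1 and 15.9 CPM in Vehicle, 22.1, 16.7 and 20.3 CPM with ISO and 14.5, 16.0 and 15.8 CPM with SR-3420. Here ISO was still above Vehicle, and SR-3420 was not separate from it.

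The rise of Soat1 was 2.06-fold with SR-3420 (1.04 ± 0.10, adjusted p = 4.22e-08) and 1.74-fold with ISO (0.80 ± 0.11, adjusted p = 1.77e-06). With inhibitors SR-3420 gave 0.07 ± 0.11 (adjusted p = 0.811, 95% interval -0.15 to 0.30), and the interaction was -0.97 ± 0.15 (adjusted p = 7.91e-05). ISO with inhibitors gave 0.44 ± 0.11 (adjusted p = 0.00143), or 0.21 and no call on total counts (adjusted p = 0.125, range 0.000253 to 0.125). The ISO interaction of -0.37 ± 0.15 was not called (adjusted p = 0.0705), but was without ISO replicate 3 (-0.42) or Lipase Inh. + ISO replicate 1 (-0.44).

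ISO and SR-3420 were also compared with each other, at a single dose of each. Without inhibitors 3 genes were higher with ISO (Abca1, Apoe, Npc2; background 15.8%) and 1 was lower (Nr1h3; background 13.9%). Abca1 was 1.56-fold higher with ISO than with SR-3420 (0.64 ± 0.11, adjusted p = 0.000150), and the samples did not overlap. Apoe was higher by 0.64 ± 0.20 (adjusted p = 0.0183), but this call was lost on total counts (0.49) and without ISO replicate 1 (0.62) or 2 (0.61) or SR-3420 replicate 1 (0.59) or 3 (0.51), with adjusted p from 0.000297 to 0.108. The calls for Npc2 (0.23 ± 0.07, adjusted p = 0.0240) and Nr1h3 (-0.23 ± 0.08, adjusted p = 0.0482) were small. That for Npc2 was lost without ISO replicate 1 (0.22) or 2 (0.21) or SR-3420 replicate 1 (0.20) or 3 (0.23), in thinned libraries (0.19) and on total counts (0.08). The Nr1h3 call was lost in 9 of the 18 fits that left out a library. These were the fits without ISO replicate 1 (-0.22), 2 (-0.24) or 3 (-0.23), SR-3420 replicate 2 (-0.16) or 3 (-0.24), Vehicle replicate 2 (-0.23), Lipase Inh. + Vehicle replicate 1 (-0.23), Lipase Inh. + ISO replicate 1 (-0.23) or Lipase Inh. + SR-3420 replicate 2 (-0.23). It was also lost in thinned libraries (-0.28) and without the filter on low counts (-0.23).

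For Abcg1 (-0.23, 95% interval -0.43 to -0.03), Mylip (-0.27, -0.48 to -0.05) and Soat1 (-0.24, -0.44 to -0.04) the direct difference was not called after adjustment, although the samples did not overlap. Abcg1 was called without Lipase Inh. + ISO replicate 2 or 3 (-0.23 in both) and Mylip without Lipase Inh. + ISO replicate 2 (-0.27). All 3 were called on total counts, at -0.38 for Abcg1, -0.41 for Mylip and -0.39 for Soat1. Npc1 gave 0.10 (95% interval -0.17 to 0.36) and Nr1h2 0.18 (0.04 to 0.32), neither called.

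The wider pathway was followed in 6 lists of genes, in which genes beyond those the naming rule takes are named after their values were seen. Over all genes tested, ISO gave 26.8% called higher and 25.0% lower, SR-3420 gave 26.0% and 25.4%, and ISO under inhibitors gave 29.4% and 28.3%. SR-3420 under inhibitors gave 4.34% in either direction. The list counts are read against these shares, and many of them are near them. Among 8 LXR partners and coregulators, 3 were called higher (Ncoa1, Ncor1, Rxrg) and 3 lower (Rxra, Rxrb, Ncoa2) with ISO, and 3 higher (Ncoa1, Ncor1, Ncoa6) and 2 lower (Rxra, Rxrb) with SR-3420. The list medians were 0.01 and 0.15. Rxra, the main heterodimer partner of LXR, was at 411, 370.3 and 372 CPM in Vehicle, 174, 174 and 165 CPM with ISO and 183, 218 and 212 CPM with SR-3420. Both stimulated groups were below Vehicle without overlap, and the change was -1.17 ± 0.07 with ISO (adjusted p = 1.70e-11) and -0.91 ± 0.07 with SR-3420 (adjusted p = 1.13e-09).

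With inhibitors Rxra was at 360, 361 and 344 CPM in Vehicle and at 124, 125 and 131 CPM with ISO (-1.48 ± 0.07, adjusted p = 2.24e-13), and SR-3420 gave 401, 355 and 344 CPM (0.05 ± 0.07, adjusted p = 0.803; 0.07 without Lipase Inh. + SR-3420 replicate 2). Ncoa1, a coactivator of nuclear receptors, rose from 118 to 144 CPM in Vehicle to 304 to 317 CPM with ISO (1.22 ± 0.07, adjusted p = 4.72e-12). With ISO under inhibitors the value was 0.06 ± 0.07 (adjusted p = 0.466). The corepressor Ncor1 rose with each stimulus, by 0.47 ± 0.08 (ISO) and 0.66 ± 0.08 (SR-3420). With inhibitors the list had 1 gene higher (Ncoa6) and 3 lower (Rxra, Ncoa2, Ncor1) with ISO, and 2 higher (Ncor1, Rxrg) with SR-3420. Without Lipase Inh. + SR-3420 replicate 2 neither was called, at 0.31 (adjusted p = 0.0676) for Ncor1 and 0.67 (adjusted p = 0.0808) for Rxrg.

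Of 14 other LXR targets 11 were tested, since Abcg4, Abcg5 and Abcg8 had at most 3 counts in a library. With ISO 2 were higher (Scd1, Lpcat3) and 2 lower (Srebf1, Fasn), with a median of -0.10, and with SR-3420 2 were higher (Lpcat3, Mertk) and 5 lower (Srebf1, Fasn, Apoc1, Apoc4, Smpdl3a), with a median of -0.23. Srebf1, the lipogenic transcription factor gene that LXR induces, was at 1210.3, 1150.2 and 1037 CPM in Vehicle, 617, 557 and 648 CPM with ISO and 803, 838 and 872 CPM with SR-3420. It fell in both, with changes of -0.90 ± 0.08 for ISO (adjusted p = 3.99e-09) and -0.44 ± 0.08 for SR-3420 (adjusted p = 8.83e-05), and the change was -1.33 ± 0.08 for ISO under inhibitors (adjusted p = 5.76e-12). SR-3420 under inhibitors gave -0.13 ± 0.08 (adjusted p = 0.457; -0.11 without Lipase Inh. + SR-3420 replicate 2).

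Scd1, the stearoyl-CoA desaturase, instead rose with ISO by 1.10 ± 0.12 (adjusted p = 1.42e-07), and Lpcat3, which remodels phospholipids, by 0.94 ± 0.10 (adjusted p = 1.00e-07). Under inhibitors these were 0.39 ± 0.12 (adjusted p = 0.00915) and -0.18 ± 0.10 (adjusted p = 0.131). With ISO, Abca1, Scd1 and Lpcat3 were thus called higher, and Abcg1, Mylip, Apoe, Srebf1 and Fasn lower. The other 7 of the 11 listed targets were not called. The 2 higher and 2 lower of 11 compare with 26.8% and 25.0% of all genes, so they do not exceed that background. With inhibitors 1 of the 11 was higher with ISO (Scd1) and 3 lower (Srebf1, Fasn, Mertk), and with SR-3420 1 was lower (Fasn, -0.56, or -0.58 and still called without Lipase Inh. + SR-3420 replicate 2).

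**Figure D4:**
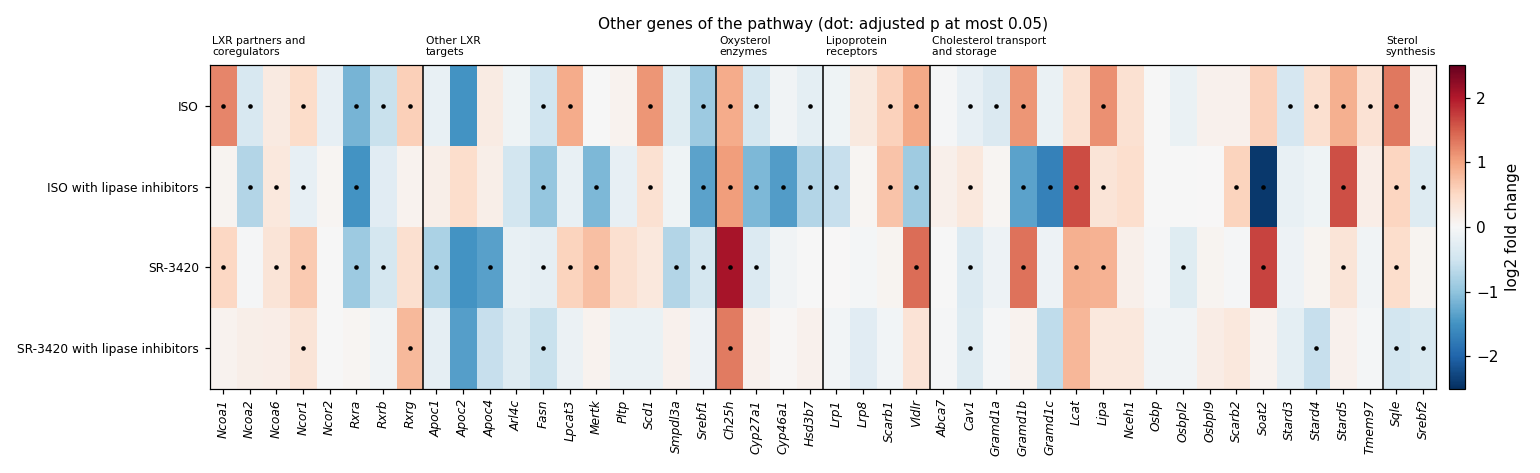
Log2 fold changes (colour, red higher and blue lower) of the tested genes of 6 pathway lists in the 4 stimulus comparisons; dots mark an adjusted p of at most 0.05. Rxra and Srebf1 are dotted blue in both rows of ISO, at -1.17 and -1.48 for Rxra, and the row of SR-3420 with inhibitors holds the fewest dots.

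Of 7 enzymes that make or break down oxysterols, the ligands of LXR, 4 were tested, as Cyp7a1, Cyp7b1 and Sult2b1 had at most 10 counts in a library. Cyp27a1, which hydroxylates the sterol side chain, fell with ISO (-0.45 ± 0.08, adjusted p = 4.53e-05), with SR-3420 (-0.34 ± 0.08, adjusted p = 0.000782) and with ISO under inhibitors (-1.12 ± 0.08, adjusted p = 8.05e-11). Hsd3b7, an enzyme of bile acid synthesis, fell with ISO (-0.24 ± 0.10, adjusted p = 0.0415) and was not called with SR-3420 (-0.02). Ch25h, the cholesterol 25-hydroxylase, was the 1 gene called higher with either stimulus, but at only 5 to 71 counts in these libraries. It was at 0.758, 0.386 and 1.06 CPM in Vehicle, 0.971, 1.26 and 2.10 CPM with ISO, which overlaps Vehicle, and 2.87, 2.47 and 3.72 CPM with SR-3420, which does not. It was also the 1 gene of the list called higher with SR-3420 under inhibitors (1.29 ± 0.36, adjusted p = 0.0395), and this call was lost without Lipase Inh. + SR-3420 replicate 2 (1.25, adjusted p = 0.0821), where it had 8 counts.

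In the lipoprotein receptor list, 2 of 4 genes were higher with ISO (Vldlr, Scarb1) and 1 with SR-3420 (Vldlr). Scarb1, the HDL receptor, rose by 0.57 ± 0.11 with ISO (adjusted p = 0.000257) and by 0.72 ± 0.11 with ISO under inhibitors (adjusted p = 1.45e-05), and was not called with SR-3420 (0.06). Under inhibitors ISO lowered 2 of the 4 (Vldlr, Lrp1).

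Among 17 tested genes of cholesterol transport and storage, 5 were higher (Lipa, Gramd1b, Stard5, Stard4, Tmem97) and 3 lower (Cav1, Gramd1a, Stard3) with ISO, and 5 were higher (Soat2, Gramd1b, Lipa, Lcat, Stard5) and 2 lower (Cav1, Osbpl2) with SR-3420. The medians were 0.11 and -0.000595. Lipa, the lysosomal acid lipase that frees cholesterol from its esters upstream of NPC1 and NPC2, was higher by 1.15 ± 0.09 in ISO (adjusted p = 4.53e-10) and by 0.87 ± 0.09 in SR-3420 (adjusted p = 4.61e-08). Gramd1b, a carrier of plasma membrane cholesterol to the endoplasmic reticulum, rose by 1.10 ± 0.14 and 1.36 ± 0.13 but fell with ISO under inhibitors (-1.33 ± 0.15, adjusted p = 1.24e-07). Soat2, the second cholesterol acyltransferase gene, was at 19 to 26 counts in Vehicle and 72 to 96 with SR-3420 (1.68 ± 0.26, adjusted p = 1.69e-05), and at 1, 4 and 12 counts with ISO under inhibitors, against 34, 18 and 43 in their Vehicle. With inhibitors ISO gave 5 higher and 3 lower in this list. SR-3420 gave 2 lower (Cav1, Stard4), both still called without Lipase Inh. + SR-3420 replicate 2 (-0.35 and -0.58). These falls start from levels above plain Vehicle. Mean Stard4 was 81.9 CPM in Vehicle, 114 with inhibitors alone and 76.6 with SR-3420 under inhibitors. Cav1 was at 1444, 1877 and 1500 CPM in the same groups. The inhibitors alone gave 2 of the 17 genes called higher and 0 lower, against 0.913% of all genes in either direction.

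Sterol synthesis was sampled by the squalene epoxidase gene Sqle and the regulator Srebf2. Sqle rose with ISO, by 1.32 ± 0.08 (adjusted p = 1.78e-11), and with SR-3420, by 0.45 ± 0.08 (adjusted p = 0.000108). The inhibitors alone raised it by 0.65 ± 0.08 (adjusted p = 8.83e-05). Under inhibitors SR-3420 instead lowered Sqle, from 149 to 108 CPM on average (-0.47, adjusted p = 0.00140). That fall was still called without Lipase Inh. + SR-3420 replicate 2 (-0.47). The SR-3420 interaction of Sqle was -0.92 (adjusted p = 5.99e-06). ISO under inhibitors still gave a call higher, at 217 CPM on average. Srebf2 was not called with ISO (0.11) or SR-3420 (0.08), and fell with both under inhibitors (-0.32 ± 0.07 and -0.37 ± 0.07). The fall with SR-3420 was -0.38 and still called without Lipase Inh. + SR-3420 replicate 2.

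Finally, the genes whose log2 levels most resembled those of Abca1, Abcg1 and Mylip over the 18 libraries were taken from 9353 well-expressed genes, as a description of libraries that share 6 treatments. Closest to Abca1 were Lpl (Pearson r = 0.975), Serinc1 (0.962) and Hacl1 (0.953). Closest to Abcg1 were Tef (0.986), Cdk19 (0.984) and Per3 (0.984), and the closest to Mylip were these same genes, Tef (0.989), Cdk19 (0.986) and Per3 (0.984). Abcg1 and Mylip had an r of 0.975 with each other and of -0.61 and -0.56 with Abca1. Npc1 followed them at 0.88 with Abcg1 and 0.82 with Mylip, whereas Nr1h3 had an r of -0.73 with Abca1.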

How the data were processed

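Whole-cell RNA of 18 samples was sequenced by the authors from TruSeq libraries. The authors aligned reads to mm9 with STAR 2.4.2a, summarised tags with HOMER and used iRNA-seq to obtain read counts for RefSeq genes. The deposited values are raw counts of 20295 genes, neither normalised nor filtered, and whether strand was used is not stated. Groups and replicate numbers came from the sample titles. No column belonged to another sample, and no pair of columns was identical.

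Counts were analysed with edgeR 4.0.16 in R 4.3.3: filterByExpr (minimum count 10, minimum total 15), TMM factors, and 1 quasi-likelihood fit (glmQLFit, glmQLFTest) of all 18 samples with a mean per group. Benjamini-Hochberg adjustment covered 12156 genes. A call needs an adjusted p of at most 0.05, and the study's second threshold is a log2 fold change of at least 1. Standard errors are the fold change over the root of F, and 95% intervals follow from them by a normal approximation. The intervals can therefore be narrower than the test implies. For Npc2 with SR-3420 under inhibitors the interval was -0.303 to -0.0087, although the unadjusted p of the quasi-likelihood test was 0.0503. CPM are TMM-scaled, and RPKM divide them by the counted length. On simulated counts for ISO against Vehicle, 200 of 200 genes changed 3-fold were recovered (100%), with 15 other calls among 12021 genes. The simulation gave all genes the same dispersion and drew the changed genes from well-expressed ones. It checks that the code runs correctly and does not measure how well smaller changes are found.

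The 9 genes and all lists were chosen with earlier results of these data known. Some genes of the lists are not reported here, and list counts and medians leave them out. The naming rule took all 9 genes, up to 3 genes per list with the largest called change with ISO or SR-3420 at an average log2 CPM of at least 1, the reported MYLIP substrates, Srebf1, the sterol synthesis genes, and the 3 genes most correlated with Abca1, Abcg1 and Mylip at an average log2 CPM of at least 3. Alternatives were DESeq2 1.42.0, RLE factors, total counts, 2 other filters, only the groups compared, thinned libraries, a replicate block, and leaving out each library; for the other list genes, only 1 library was left out, an alternative chosen after seeing the data. The depth limits consider counting error only. No molecular identifiers are described, so any error added by amplification is not included.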

Additional observations from a re-analysis of the deposited data

Results flagged for a closer look

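In all, 10 interactions were listed because the effect of a stimulus with the lipases inhibited differed from its effect without inhibitors, by the test of the difference itself. For ISO they were Abca1 (0.55), Abcg1 (-0.48), Mylip (-0.48), Nr1h3 (-0.50) and Npc1 (-0.98) on the log2 scale. For SR-3420 they were Abca1 (0.51), Abcg1 (0.51), Mylip (0.94), Apoe (1.24) and Soat1 (-0.97). The inhibitors moved the responses of Abcg1 and Mylip further down for ISO and back toward no change for SR-3420. The calls for Abcg1 and Mylip with ISO, and for Abca1 with SR-3420, were lost in some of the settings named above.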

How the results depend on the processing

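Each of the 72 values of the 9 genes in 8 comparisons was recomputed, whereas the other genes of the lists were recomputed only without Lipase Inh. + SR-3420 replicate 2, which was chosen after seeing the data. All 72 kept their side of the threshold with RLE factors and with a stricter filter, as did 70 of 71 with DESeq2, 69 with only the groups compared, 68 without the filter, 67 in thinned libraries and 1253 of 1296 over the leave-one-outs (30 calls lost, 13 gained). No call was made in the opposite direction in these settings, but 19 values that were not called, of at most 0.16 in size, changed sign in at least 1 setting, total counts included. On total counts 55 kept their side of the threshold, 7 calls were lost, 9 gained and 1 value, Npc2 with ISO, turned to -0.30. There, the genes called were 1 higher and 6 lower with ISO. With SR-3420 1 was called higher, and Abca1 (-0.40) and Npc1 (-0.37) joined those called lower. With ISO under inhibitors 1 was called higher, and Npc2 (-0.23) joined those called lower. The ISO interaction had 2 higher and 2 lower, and ISO against SR-3420 had 1 higher and 4 lower. In the ISO interaction 2 were called higher without the filter and with only the groups compared, and in ISO against SR-3420 the lower calls were 0 and 3 with these settings. The cause was not tested.

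Leaving out 1 library at a time, the calls were 2 higher and 2 to 3 lower with ISO, 2 and 4 to 6 with SR-3420, 2 and 4 with ISO under inhibitors, 0 to 1 and 0 with SR-3420 under inhibitors, 1 to 2 and 3 to 5 in the ISO interaction, 3 to 5 and 1 in the SR-3420 interaction, and 1 to 3 and 0 to 3 in ISO against SR-3420. Inhibitors alone gave 0.

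The labels and methods do not say what a replicate number shares, and the numbers were not taken to pair the samples because the deviations of same-numbered samples correlated over 0.1 in only 1 of 15 pairs for number 1 (mean -0.01), against 12 of 15 for number 2 (0.15) and 15 of 15 for number 3 (0.19). As a hint from the data, 14 of 18 samples correlated best with their own number. The weak agreement for number 1 does not show that the samples are unpaired, and whether a number marks a shared experiment was not settled. With a replicate block, 62 of the 72 values kept their call and 10 were gained. The block gave 7 calls lower with SR-3420 (Abca1 and Npc1 gained), 2 higher with SR-3420 under inhibitors (Abca1, Npc1), 1 lower with inhibitors alone (Nr1h3), 2 higher in the ISO interaction (Apoe gained), 5 higher in the SR-3420 interaction (Npc1 gained), and 4 higher (Nr1h2 gained) and 3 lower (Abcg1, Mylip gained) in ISO against SR-3420.

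Over all genes, total counts changed the calls from 3258 higher and 3042 lower to 1496 and 6004 with ISO, from 3165 to 1947 higher with SR-3420, from 3574 to 1973 higher with ISO under inhibitors, from 363 to 114 higher with SR-3420 under inhibitors, from 59 to 29 higher with inhibitors alone, and from 1916 higher and 1693 lower to 775 and 3035 in ISO against SR-3420, where thinning gave 1127 lower. For SR-3420 under inhibitors (363 higher, 165 lower) the block gave 577 and 275, only the groups compared gave 231 higher, and the leave-one-outs 206 to 392 and 91 to 176. For inhibitors alone (59 and 52) DESeq2 gave 117 and 90, the block 147 and 122, only the groups compared 24 and 23, and the leave-one-outs 28 to 82 and 28 to 68.

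With 60 counts of Soat1 in the shallowest library, differences of low genes there are the least precise.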
